A study of Mus musculus with 20 samples.

Results

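The regions described here were accessible chromatin peaks that lay beside the annotated start of a non-coding transcript and away from every start of a protein-coding transcript. Non-coding here meant any annotated transcript type other than protein-coding. Immunoglobulin and T cell receptor segments, which encode protein but have types of their own, were therefore counted as well. A peak was a member when at most 1000 bp separated it from any transcription start site (TSS) of the GENCODE M21 annotation and more than 1000 bp separated it from every TSS of a transcript annotated as protein-coding, in mouse build GRCm38 (mm10). Of 102373 listed peaks, 7659 met this rule, which is 7.48% (95% Wilson interval 7.32 to 7.64) of the list and 29.9% of the 25657 peaks at any start. They covered 4.06 Mb. The remaining start peaks, 17998, lay within 1000 bp of a protein-coding start, and the 76716 peaks farther than 1000 bp from every TSS were called distal.

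The peaks come from ATAC-seq, in which a transposase inserts adapters into open DNA, of ZHBTc4 mouse embryonic stem (ES) cells. In ZHBTc4 cells both copies of the endogenous OCT4 gene (Pou5f1) are disrupted and a Tet-Off transgene supplies OCT4, so that doxycycline (dox) turns it off. Cells carried lentiviral SNAP-MD-OCT4, whose mitotic degron from Cyclin B1 removes it at the exit from mitosis, or SNAP-MD*-OCT4, whose degron is mutated, each driven by a PGK promoter. There were 20 libraries, 2 replicates for each of 10 groups. Cells of either construct were kept for 40 h in dox at 1 µg/ml and sorted by phase into late S/G2, S, late G1 and early G1, which gave 16 libraries, and the other 4 libraries were unsorted cells of either construct without dox. Every line also carried a YPet-MD reporter, used with Hoechst stain for the sort, and each line was a population sorted for matched SNAP levels, not a single clone.

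The list is the union of the peaks of the 16 dox-treated libraries, with a chromosome, start and end for each peak and no value for any library. Depth per library is unknown here, there are no replicates of the list, and MD-OCT4 cannot be compared with MD*-OCT4, nor one phase with another, from it. A peak open in 1 library counted the same as a peak open in all 16. Intervals given are therefore 95% intervals that treat peaks or genes as independent and cover counting error only. No p-value was computed.

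Annotated non-coding transcripts are a mixed class. Long intergenic RNAs (lincRNAs) and antisense RNAs are mostly made by RNA polymerase II from promoters of their own, which are usually nucleosome-depleted, whereas retained-intron and many processed transcripts are isoforms of coding genes, and a processed pseudogene is a reverse-transcribed copy of an mRNA inserted without its promoter. ES cells are known for several such RNAs, among them the RNAs of the X-inactivation centre, the primary transcripts of the miR-290 and miR-302 clusters and the pluripotency-associated Platr transcripts. OCT4 and SOX2 bind side by side to a composite sequence in ES cell enhancers, CTCF binds insulators and loop anchors, and NRF1, ETS factors, NFY and YY1 are known at CpG-rich promoters.

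The sequences below are shown because OCT4 is the factor that the study removed. They are the 6 member peaks whose best match to the 15-base OCT4::SOX2 consensus held at most 1 mismatch, and the peak at Platr3, the only listed Platr gene with a match in a member peak, which held 2. Capitals mark the matched bases, the SOX part first and the OCT part second, with flanking bases in lower case, read 5′ to 3′ from GRCm38. Each is named by the gene of the nearest non-coding start.
Gm5353 (chr8:76863266-76863304, plus strand): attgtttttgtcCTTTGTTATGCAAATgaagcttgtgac
Rdh10 (chr1:16130132-16130170, minus strand): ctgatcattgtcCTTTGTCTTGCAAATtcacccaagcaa
Nr5a2 (chr1:136940760-136940798, plus strand): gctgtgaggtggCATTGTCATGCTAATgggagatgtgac
Igfbpl1 (chr4:45815701-45815739, plus strand): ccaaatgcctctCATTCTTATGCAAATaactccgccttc
Tcea3 (chr4:136246534-136246572, minus strand): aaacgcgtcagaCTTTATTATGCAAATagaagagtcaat
Shroom2 (chrX:152643729-152643767, minus strand): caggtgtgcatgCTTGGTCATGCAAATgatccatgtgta
Platr3 (chr2:135648266-135648304, plus strand): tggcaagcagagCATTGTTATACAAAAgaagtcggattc
The match at Gm5353, a processed pseudogene, had no mismatch and lay 9 bp from the centre of its peak. Counted from 1 at the 5′ end of the capitals, the mismatch fell at position 8 for Rdh10, 12 for Nr5a2, 5 for Igfbpl1, 5 for Tcea3 and 4 for Shroom2, and at positions 10 and 15 for Platr3.

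The whole Gm5353 peak, 283 bp wide, is printed because it held matches to several ES cell factors. Capitals mark an ESRRB match at bases 96 to 104, the OCT4::SOX2 match at bases 126 to 140 with an overlapping SOX match that began 1 base earlier, and a further SOX match at bases 155 to 162.
Gm5353 peak (chr8:76863153-76863435, plus strand): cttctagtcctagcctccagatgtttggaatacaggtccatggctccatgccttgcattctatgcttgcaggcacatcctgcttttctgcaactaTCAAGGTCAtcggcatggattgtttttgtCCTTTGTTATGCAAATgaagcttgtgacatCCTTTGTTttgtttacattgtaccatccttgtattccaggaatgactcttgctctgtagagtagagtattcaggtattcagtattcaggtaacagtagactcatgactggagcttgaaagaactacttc
The peak lay 105 bp from the pseudogene's start, outside coding genes and 36007 bp from the nearest protein-coding start, that of Nr3c2, which encodes the mineralocorticoid receptor.

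Regulatory sequence of the X-inactivation centre, where Xist coats the inactive X and Tsix is transcribed across Xist on the opposite strand, and of the miR-302 cluster follows, because these are the best studied non-coding loci among the members. The Xist and Mir302b peaks are printed whole and entirely in lower case, since none of the 10 motifs searched matched in them. In the Tsix stretch capitals mark a CTCF match with 1 mismatch.
Xist peak (chrX:103483920-103484143, minus strand): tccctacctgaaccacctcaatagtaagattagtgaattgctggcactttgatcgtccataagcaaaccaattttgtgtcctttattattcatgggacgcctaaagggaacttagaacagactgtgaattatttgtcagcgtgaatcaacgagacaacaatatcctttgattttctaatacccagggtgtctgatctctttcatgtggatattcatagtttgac
Tsix CTCF match (chrX:103447502-103447539, minus strand): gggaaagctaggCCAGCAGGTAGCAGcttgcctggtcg
Mir302b peak (chr3:127545045-127545231, plus strand): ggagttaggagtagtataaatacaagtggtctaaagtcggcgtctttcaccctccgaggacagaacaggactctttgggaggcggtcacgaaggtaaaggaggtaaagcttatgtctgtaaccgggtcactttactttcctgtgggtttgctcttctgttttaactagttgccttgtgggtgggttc
The RefSeq promoters of 3 further genes, 250 bases before to 50 bases after the start in GRCm38.p6, are also printed. They were picked by hand from 564 genes with a promoter that overlapped a member peak of the same gene. Each of the 3 held a match, and for Jpx the overlap was only in part. Capitals mark a YY1 match with 1 mismatch in Jpx at bases 286 to 296, a CTCF match with 1 mismatch in Snhg12 at bases 200 to 213, and an ETS match in Snhg20 at bases 248 to 255.
Jpx promoter (chrX:103493308-103493607, plus strand): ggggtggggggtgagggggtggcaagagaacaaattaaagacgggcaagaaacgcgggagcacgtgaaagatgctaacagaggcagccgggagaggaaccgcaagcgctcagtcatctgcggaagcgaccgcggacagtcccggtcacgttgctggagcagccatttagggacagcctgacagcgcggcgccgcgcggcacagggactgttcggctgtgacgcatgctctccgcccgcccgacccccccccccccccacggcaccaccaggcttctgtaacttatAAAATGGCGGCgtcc
Snhg12 promoter (chr4:132308428-132308727, plus strand): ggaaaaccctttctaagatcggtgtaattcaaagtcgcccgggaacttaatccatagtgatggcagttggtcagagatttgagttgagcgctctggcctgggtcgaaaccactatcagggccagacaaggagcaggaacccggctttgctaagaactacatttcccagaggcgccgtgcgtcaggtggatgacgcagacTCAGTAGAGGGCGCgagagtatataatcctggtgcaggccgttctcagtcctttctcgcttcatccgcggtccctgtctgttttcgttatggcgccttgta
Snhg20 promoter (chr11:117076533-117076832, plus strand): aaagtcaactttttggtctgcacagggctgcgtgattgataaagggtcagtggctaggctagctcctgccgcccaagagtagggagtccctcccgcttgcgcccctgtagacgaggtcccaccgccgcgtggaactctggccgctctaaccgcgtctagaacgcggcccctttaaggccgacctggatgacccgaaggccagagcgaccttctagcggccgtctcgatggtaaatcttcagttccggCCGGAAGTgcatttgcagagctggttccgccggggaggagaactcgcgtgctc

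When each member was assigned to the type of its nearest non-coding start, the starts of retained-intron transcripts led with 1646 peaks (21.5%), followed by processed transcripts with 1511 (19.7%), lincRNAs with 1432 (18.7%), pseudogenes with 1067 (13.9%) and antisense transcripts with 659 (8.60%). The remaining members lay nearest to TEC transcripts, which await experimental support (387), small RNAs other than miRNAs (357), miRNAs (259), transcripts marked for nonsense-mediated decay (217) and other types (124). The other types included 50 peaks at immunoglobulin V segments and 10 at T cell receptor V segments, which are not non-coding in the usual sense. For 6924 members (90.4%) all starts within 1000 bp belonged to a single type group, and 674 had starts of 2 groups. Among the pseudogene starts 873 belonged to processed pseudogenes and 111 to unprocessed ones. Among small RNAs snoRNAs (151) and snRNAs (118) were the most frequent.

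**Figure D1:**
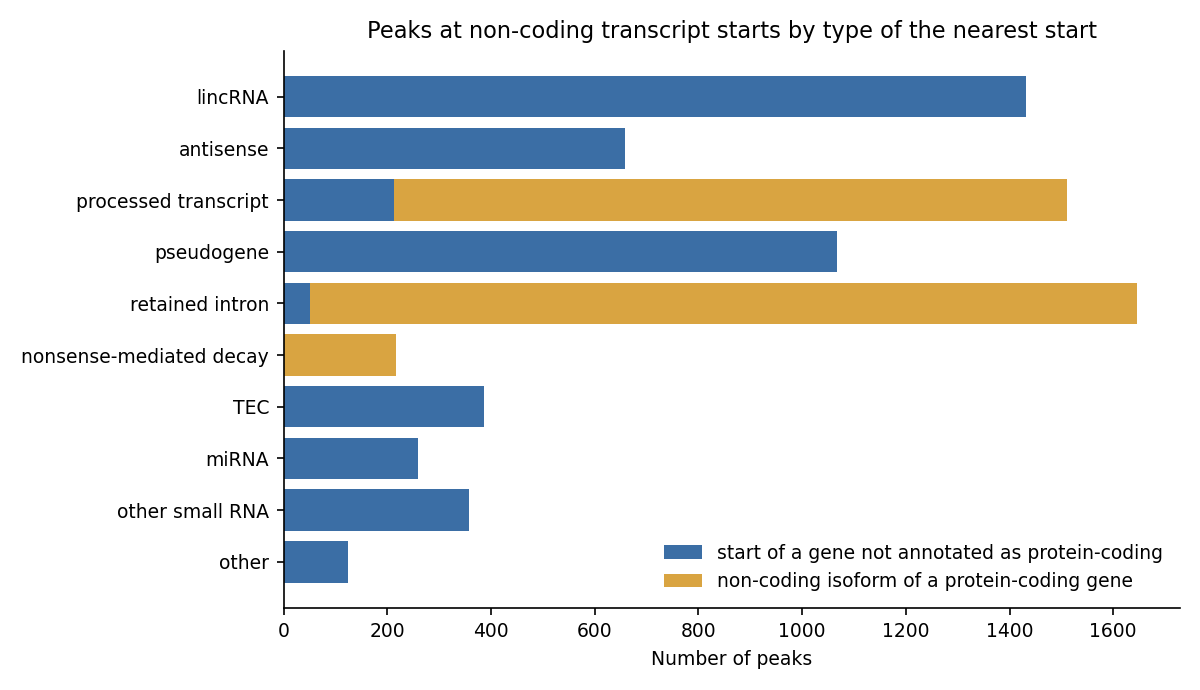
Number of member peaks (horizontal axis) by the type of the nearest non-coding start (vertical axis), split by whether the gene of that start is annotated as protein-coding or not. Retained-intron and processed-transcript starts belonged mostly to coding genes (1596 of 1646 and 1298 of 1511), whereas lincRNA starts were starts of separate genes, as the type implies.

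Many members were thus at starts of non-coding isoforms of coding genes. The nearest non-coding start belonged to a protein-coding gene for 3112 members, 40.6% (39.5 to 41.7), which comprised 97.0% of the retained-intron group, 85.9% of the processed-transcript group and 100% of the nonsense-mediated decay group. These isoforms are nearly absent from the basic set of GENCODE, its subset of representative transcripts: with that set 4559 peaks met the rule and 0.132% of them were at a coding gene. In all, members lay at starts of 4334 genes not annotated as coding, of which 3730 had 1 member peak and 95 had 3 or more, and of 2449 protein-coding genes. The coding genes with the most member peaks at their non-coding isoforms were 2010111I01Rik with 8, Frmd4b with 7 and Ggta1 with 7. These 3 were chosen after their values were seen.

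The groups differed in where they lay relative to coding genes, which the annotation types in large part fix. A lincRNA is annotated as intergenic, and most retained-intron and processed transcripts here were isoforms of coding genes. The rule itself also kept every member more than 1000 bp from a coding start. These values describe the groups and are not a separate result about the peaks. Of lincRNA peaks 5.94% were centred inside a protein-coding gene, against 96.4% of retained-intron, 86.2% of processed-transcript, 68.3% of antisense and 22.3% of pseudogene peaks. The antisense peaks lay mainly over genes of the other strand, as the annotation class implies: 443 of 659, 67.2% (63.5 to 70.7), were centred in a coding gene on the opposite strand to the start, and 1.06% in one on the same strand. Coding-transcript exons held the centre of 20.9% of retained-intron, 13.7% of antisense, 12.1% of processed-transcript and 1.40% of lincRNA peaks. The median distance to the nearest protein-coding TSS was 16755 bp over all members. It was 40597 bp for lincRNA peaks, 22284 bp for pseudogene, 12953 bp for processed-transcript and 12356 bp for antisense peaks, and 45.0% of lincRNA peaks were more than 50000 bp from any coding start.

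Member peaks were wider than distal peaks and narrower than peaks at coding starts. Their median width was 432 bp (421 to 442), with quartiles of 243 and 703 bp and a maximum of 23148 bp. Coding-start peaks had a median of 980 bp (difference, members minus coding, -548 bp, -561 to -535) and distal peaks one of 352 bp (difference 80.0 bp, 69.5 to 90.5). Because distance was taken from the edge of a peak, the rule favoured wide peaks over distal ones. With distance taken from the centre the difference from distal peaks was 61 bp (49.9 to 72.1).

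Base composition followed the same order. Median GC content was 51.5% (51.3 to 51.7) in members, 59.7% at coding starts and 48.6% in distal peaks, so that members differed by -8.26 points (-8.49 to -8.02) from the former and by 2.90 points (2.69 to 3.10) from the latter. The ratio of observed to expected CpG was 0.293, 0.678 and 0.218 in that order. Peaks of CpG island composition, at least 200 bp wide with more than 50% GC and a CpG ratio above 0.6, made up 10.9% of members (838 peaks, 10.3 to 11.7), 60.7% of coding-start peaks and 2.46% of distal peaks. Repeat-masked bases made up 14.96% of member sequence, against 8.02% at coding starts and 21.6% in distal peaks.

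Within the members, lincRNA peaks were the widest of the 5 main groups, with a median of 538 bp (509 to 566). Processed-transcript peaks had a median of 462 bp, antisense peaks 454 bp, pseudogene peaks 390 bp and retained-intron peaks 386 bp. The lincRNA median exceeded that of antisense peaks by 84.0 bp (40.3 to 128) and that of pseudogene peaks by 148 bp (110 to 186). Pseudogene and retained-intron peaks could not be separated by width (difference 4.50 bp, -29.4 to 38.4), nor could antisense and processed-transcript peaks (-8 bp, -50.5 to 34.5). CpG island composition was most frequent in antisense peaks (100 of 659, 15.2%, 12.6 to 18.1) and pseudogene peaks (160 of 1067, 13.0 to 17.3%), then lincRNA peaks (12.3%, 10.7 to 14.1), and least frequent in retained-intron peaks (7.84%, 6.63 to 9.24). The difference between antisense and retained-intron peaks was 7.34 points (4.44 to 10.5), whereas lincRNA and antisense peaks differed by -2.88 points, with an interval that included 0 (-6.23 to 0.228). Pseudogene peaks held the most repeat-masked bases of the 5 groups, 20.7%, and reads from a pseudogene can be shared with its parent gene, so individual pseudogene peaks are uncertain.

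**Figure D2:**
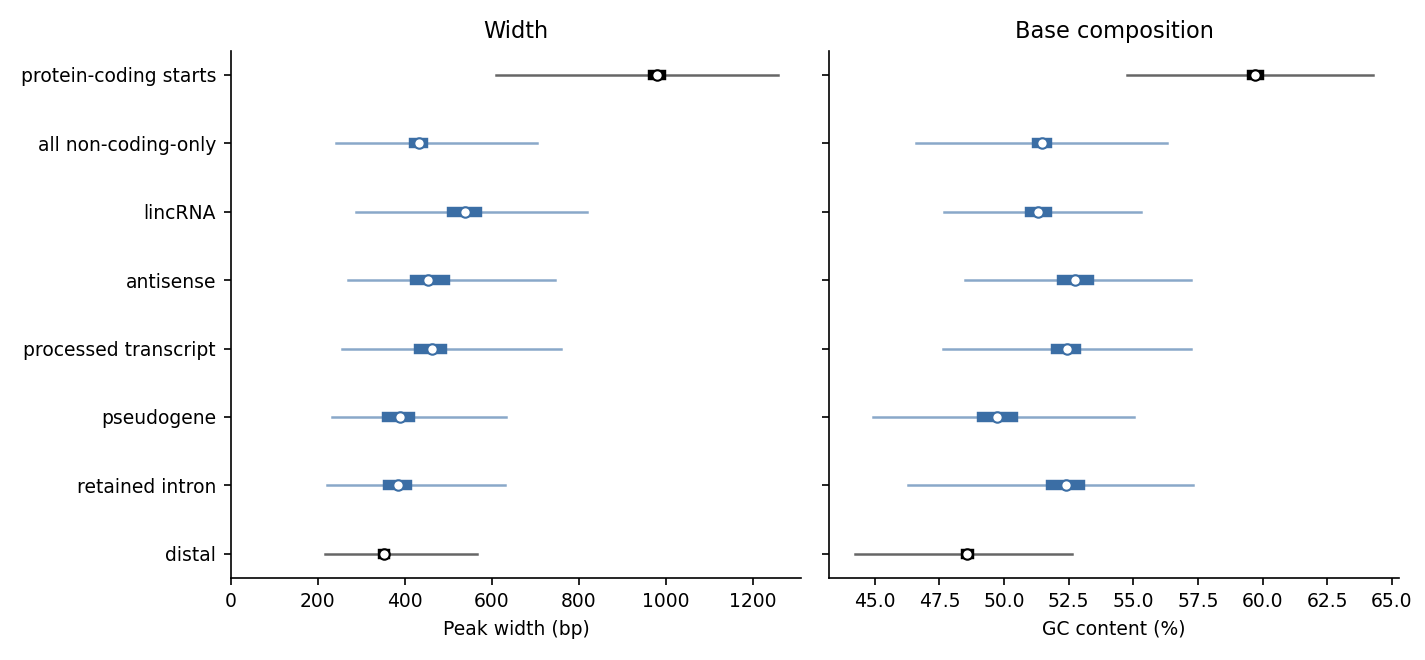
Width in bp and GC content in percent of peaks in each class and transcript-type group. Circles are medians, thick bars their 95% intervals and thin bars the quartiles. The 5 main groups lie between distal peaks (352 bp, 48.6% GC) and coding-start peaks (980 bp, 59.7% GC) in both measures, and lincRNA peaks are the widest of the 5 main groups.

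Only part of the members lay on the start itself. The peak overlapped the nearest non-coding TSS for 2755 members, 36.0%, and this share was 50.0% (47.4 to 52.6) for lincRNA, 44.8% for antisense, 38.8% for processed-transcript, 28.4% for retained-intron and 28.2% for pseudogene starts. Members over the start were wider than the others (medians 651 and 339 bp, difference 312 bp, 293 to 331), which the overlap itself favours. They also had CpG island composition more often, 21.3% against 5.10% (difference 16.2 points, 14.6 to 17.9). Among lincRNA peaks the shares were 18.6% over the start and 6.01% beside it (difference 12.6 points, 9.24 to 15.9). Peaks narrower than 200 bp could not qualify, and these shares were not adjusted for width. The median CpG ratio, which has no width limit, was 0.387 in members over the start and 0.253 in the others. Members whose start belonged to a non-coding gene were of CpG island composition in 12.9%, and those at isoforms of coding genes in 8.07% (difference 4.84 points, 3.46 to 6.20).

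To see whether peaks were placed on the starts or merely near them, coverage by listed peaks was counted along the 3000 bp on either side of starts. These starts lay more than 3000 bp from any coding TSS. At lincRNA starts 13.8% (13.0 to 14.5) of 7791 positions were covered, against a mean of 2.59% at 2000 bp, a ratio of 5.32. Antisense starts were similar, with 14.4% (13.1 to 15.8) and a ratio of 4.62. In both the highest coverage was at the start. Retained-intron starts had 5.73% (5.27 to 6.23) and a ratio of 1.93, and pseudogene starts 2.41% (2.16 to 2.68) and a ratio of 1.504. The processed-transcript class was split by its genes: starts in non-coding genes were covered at 213 of 1119 positions, a ratio of 5.92, and starts of isoforms of coding genes at 481 of 5798 (8.30%), a ratio of 2.71. Protein-coding starts, for which no such distance can be required, had 56.5% and a ratio of 15.6.

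**Figure D3:**
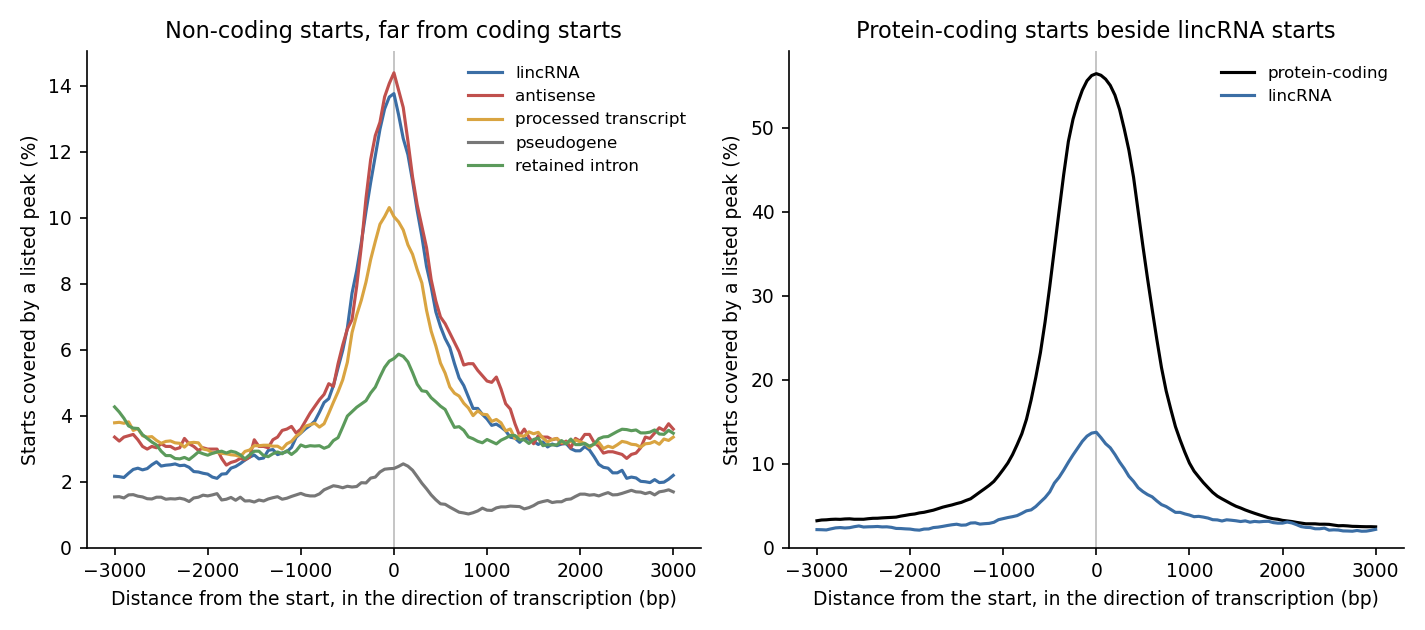
Share of starts covered by a listed peak in percent (vertical axis) against distance from the start in bp (horizontal axis), for starts of 5 non-coding types that were more than 3000 bp from any coding start. The right panel sets protein-coding starts, for which no distance was required, beside lincRNA starts. Coverage is 13.8% at lincRNA and 14.4% at antisense starts, where it is highest, and is 2.41% at pseudogene starts, against a mean of 1.60% at 2000 bp.

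Seen from the annotation, most non-coding genes away from coding starts had no listed peak at their start. Among genes with all starts more than 1000 bp from a coding TSS, a listed peak lay within 1000 bp for 1249 of 5481 lincRNA genes, 22.8% (21.7 to 23.9), and for 581 of 2013 antisense genes, 28.9% (26.9 to 30.9). The share was 44.6% for genes of the processed-transcript type (213 of 478), 20.1% for transcribed pseudogenes (105 of 522) and 8.69% for processed pseudogenes (858 of 9875). Small RNA genes had intermediate shares, 16.9% for miRNA, 13.7% for snoRNA and 9.93% for snRNA genes. Over all genes of a type, those near coding starts included, the shares were 62.8% for processed-transcript genes (496 of 790), 46.6% for antisense, 27.0% for lincRNA and 8.85% for processed pseudogenes. Of all protein-coding genes 70.4% had a listed peak, and lincRNA genes away from coding starts differed from them by -47.7 points (-48.9 to -46.4). In the same set, the difference of lincRNA genes from antisense genes was -6.07 points (-8.37 to -3.83) and that from processed pseudogenes 14.1 points (12.9 to 15.4). Transcribed pseudogenes exceeded processed ones by 11.4 points (8.16 to 15.1). Spliced lincRNA genes and those with 1 exon had shares of 22.6% and 25.6%, and the interval of the difference included 0 (-8.56 to 1.93 points).

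**Figure D4:**
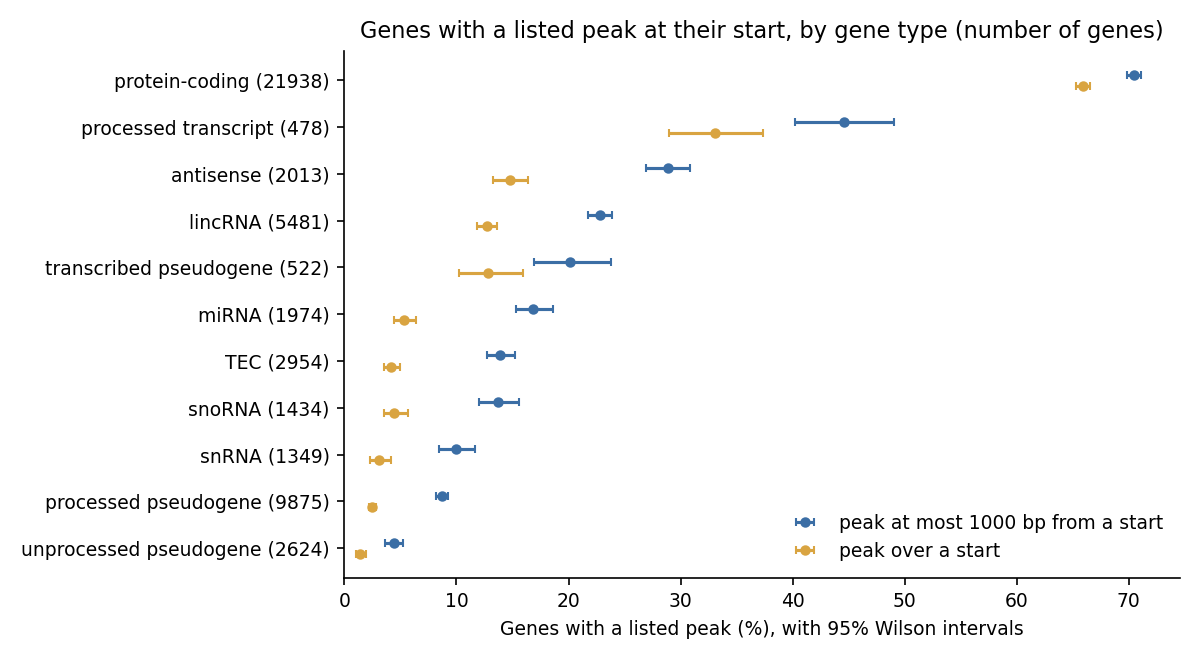
Share of genes in percent (horizontal axis) with a listed peak within 1000 bp of a start or over a start, by gene type (vertical axis), with Wilson 95% intervals. Non-coding genes are those with all starts more than 1000 bp from a coding TSS. lincRNA genes reach 22.8% within 1000 bp and 12.7% over the start, and processed pseudogenes 8.69% and 2.46%.

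Motifs were searched on both strands as fixed words. The words were ATGCAAAT for OCT, CCATTGTC, CCATTGTT, CCTTTGTC and CCTTTGTT for SOX, TCAAGGTCA for ESRRB, CCGGAAGT for ETS and CCAATCAG for NFY, all without mismatch. The composite OCT4::SOX2 consensus of 15 bases was allowed 2 mismatches, those of CTCF (14 bases), NRF1 (10 bases) and YY1 (11 bases) were allowed 1, and that of KLF (10 bases) none. SOX and OCT words can overlap an OCT4::SOX2 match. Shares were compared in the central 200 bp of each peak, because wide peaks hold more matches by length alone. Peaks narrower than that, 16.1% of members, 5.03% of coding-start peaks and 20.3% of distal peaks, were searched whole. A match is a description of the sequence and not evidence of binding.

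For each of the 10 motifs the share in the centres of member peaks was nearer to that of distal peaks than to that of coding-start peaks. OCT4::SOX2 matches were found in 32 members, 0.418% (0.296 to 0.589), against 0.0722% of coding-start peaks (difference 0.346 points, 0.214 to 0.520) and 0.450% of distal peaks (difference -0.0319 points, -0.163 to 0.145). CTCF matches were the most frequent, in 619 members, 8.08% (7.49 to 8.71), which differed by 5.60 points (4.97 to 6.27) from coding-start peaks and by -1.23 points (-1.85 to -0.561) from distal peaks. SOX matches stood at 5.48%, between 2.61% at coding starts and 6.89% in distal peaks, and ESRRB matches at 1.24%, between 0.356% and 1.59%. Of the 4 motifs known from promoters, all were rarer in members than at coding starts, and NRF1 and ETS were more frequent than in distal peaks. NRF1 stood at 1.16%, against 4.61% and 0.542%, and ETS at 0.796%, against 3.04% and 0.430%. For NRF1 and ETS, the intervals of the difference from distal peaks excluded 0 (0.396 to 0.890 points for NRF1 and 0.184 to 0.596 for ETS). For NFY (difference from distal peaks 0.119 points, -0.117 to 0.401) and YY1 (-0.123 points, -0.278 to 0.0769) they included 0. Over whole peaks, where members are also the wider class, the difference from distal peaks was 0.314 points (0.0467 to 0.627) for YY1, 0.766 points (0.396 to 1.18) for NFY and 0.256 points (-0.539 to 1.09) for CTCF, so that the signs for YY1 and CTCF turned.

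Across types, CTCF matches in the central 200 bp were most frequent at retained-intron starts, 10.4% (9.01 to 12.0), and were found at 8.15% of pseudogene, 7.41% of processed-transcript, 6.77% of lincRNA and 6.07% of antisense peaks. The lincRNA share differed from the retained-intron share by -3.62 points (-5.58 to -1.63). Peaks at isoforms of coding genes had CTCF matches in 9.32% and peaks at non-coding genes in 7.24%, a difference of -2.08 points (-3.37 to -0.831) for the latter. ETS words went the other way, 0.701 points (0.0540 to 1.45) more frequent at lincRNA than at retained-intron starts. OCT4::SOX2 shares were between 0.455% and 0.489% in 4 of the 5 groups and 0.187% at pseudogene starts, too few matches to separate the groups.

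**Figure D5:**
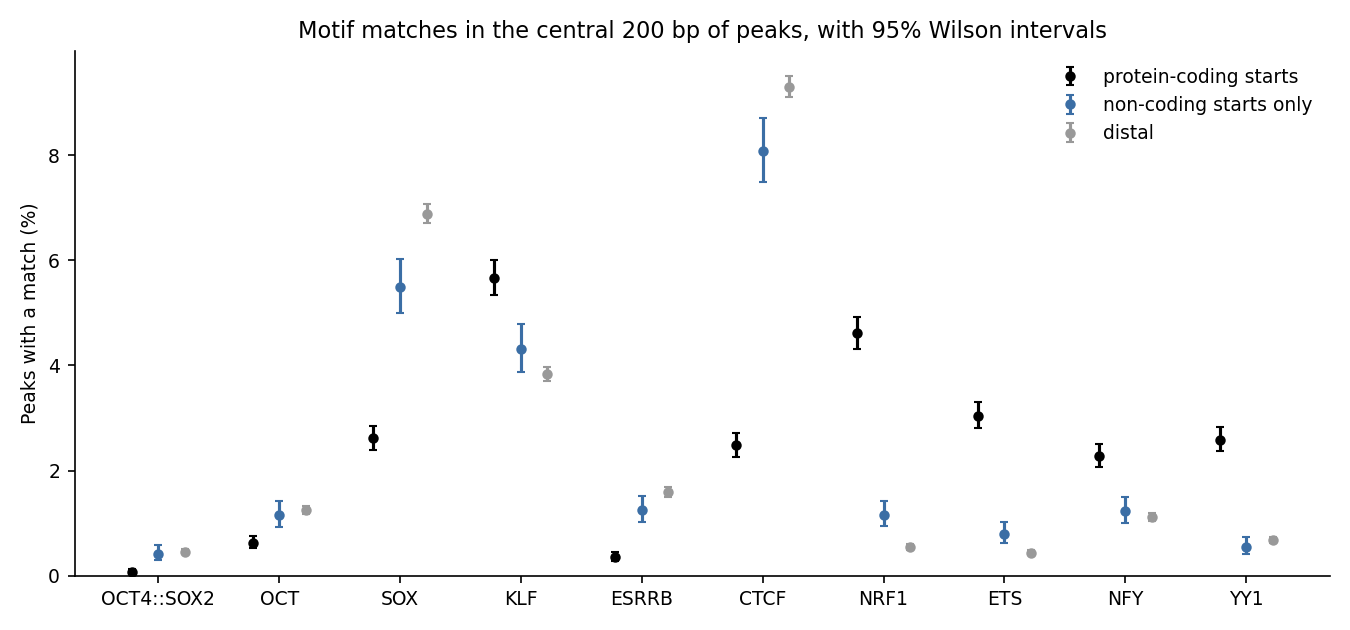
Share of peaks in percent (vertical axis) with a match to each of 10 motifs (horizontal axis) in the central 200 bp, for member, coding-start and distal peaks, with Wilson 95% intervals. CTCF is found in 8.08% of members, 2.48% of coding-start and 9.31% of distal peaks, whereas NRF1 is found in 1.16%, 4.61% and 0.542%.

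In the RefSeq promoter table, 622 promoters of 564 genes overlapped a member peak of the same gene, wholly or in part. In these promoters CTCF matches were found in 7.88% (6.01 to 10.3) and SOX words in 8.68%, against 2.28% and 4.83% of all 32851 promoters of the same length. YY1 matches were rarer, 0.643% against 2.23%, as were NRF1 matches, 4.02% against 6.33%. KLF words were found in 7.23% and 7.24%. All promoters include these 622 and are mostly promoters of coding genes. The 622 were selected by overlap with a listed peak and the full set was not, so the comparison mixes accessibility with gene type.

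In whole peaks, 63 members (0.823%) held an OCT4::SOX2 match, 1 with no mismatch, 5 with 1 and 57 with 2. The share depended on the mismatches allowed, with 0.0783% at no more than 1 and 5.31% at no more than 3. Besides Gm5353, the peaks with the closest matches lay at isoforms of coding genes. The Rdh10 peak, 759 bp wide, overlapped a retained-intron start of this retinol dehydrogenase gene. The Nr5a2 peak (chr1:136940710-136940970, 261 bp) lay in a coding exon of this nuclear receptor gene, itself a pluripotency factor, 127 bp from a retained-intron start and 8203 bp from the coding start. The Igfbpl1 peak (356 bp) was intronic, and the Tcea3 peak (432 bp), near a gene for a transcription elongation factor, lay 1011 bp from a coding start and so just met the rule. The Shroom2 peak (212 bp) lay 4 bp from a processed-transcript start on the X chromosome.

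All 4 genes of the X-inactivation centre looked up had member peaks, 8 in all, with a median width of 413 bp, beside 432 bp over all members. A listed peak of any class lay within 1000 bp of a start of 27.0% of all lincRNA and 46.6% of all antisense genes. At Xist the listed peak was narrow, 224 bp (chrX:103483920-103484143), lay 666 bp upstream of the start and had 38.8% GC. No listed peak covered the Xist start. Tsix had 3 peaks, of which the widest, 703 bp (chrX:103447388-103448090), overlapped a start and held the CTCF match printed above. The others, 216 and 333 bp wide, lay 51 and 854 bp from another Tsix start. Jpx, an RNA known as an activator of Xist, had a peak of 539 bp with 59.7% GC and CpG island composition over its start. Ftx, a further RNA of the centre, had 3 peaks over its starts, of 1200, 493 and 153 bp.

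Of 9 imprinted RNAs 3 had member peaks and 6 (H19, Meg3, Rian, Mirg, Peg13 and Snhg14) had no listed peak within 1000 bp of a start. Such a peak was found for 46.6% of all antisense and 27.0% of all lincRNA genes. Kcnq1ot1, the antisense RNA that silences genes of the Kcnq1 domain, had a peak of 1018 bp over its start in an intron of a coding gene. Airn, antisense to Igf2r, had peaks of 243, 668 and 424 bp, of which the 668 bp peak overlapped its start and the 424 bp peak, 823 bp away, had CpG island composition. Nespas, antisense to Nesp in the Gnas locus, had a member peak of 1681 bp, 1760 bp from a coding start of Gnas, beside 2 peaks at coding starts.

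Among RNAs known from ES cells, 39 of 40 names looked up were annotated. Of these 23 had member peaks, 34 in all with a median width of 617 bp, 6 had a peak only near a coding start and 10 had none. The median width over all members was 432 bp. Of all lincRNA genes 27.0%, and of all processed-transcript genes 62.8%, had a listed peak of any class within 1000 bp of a start. Lncenc1, an RNA abundant in naive ES cells, had 3 peaks of 412, 446 and 757 bp, the widest of them over a start. Firre, an X-linked RNA, had peaks of 790 bp over a start and 857 bp at 368 bp from another. Sox2ot, whose transcripts span Sox2, had 3. Of the Platr genes, Platr19 had the widest member peak, 1589 bp over its start, and Platr1, Platr4, Platr9, Platr10, Platr12, Platr14, Platr22, Platr26 and Platr27 also had a peak over a start. The Platr3 peak of 267 bp lay 538 bp from the start. Some of these peaks were largely repeat-masked, Platr14 at 75.6%, Platr1 at 72.9% and Platr10 at 71.4%, so reads there may be shared with other copies. The genes of Tunar, Panct2, Evx1os, Platr20, Platr23 and Platr25 had peaks only near coding starts. Rmst and Miat, better known from neurons, had 1 and 3 member peaks.

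Of 23 widely expressed long RNAs 15 had member peaks, 27 with a median width of 933 bp, and 21 of these 27 overlapped a non-coding start. Over all members the median width was 432 bp and 36.0% overlapped the nearest non-coding start. A listed peak of any class lay within 1000 bp of a start of 27.0% of all lincRNA and 62.8% of all processed-transcript genes. Malat1, a nuclear RNA, had a peak of 629 bp over its start with 40.4% GC and one of 805 bp with CpG island composition 585 bp away. Neat1, which builds paraspeckles, had a peak of 1777 bp over its start. Several hosts of small nucleolar RNAs had wide peaks over a start: 1767 bp at Snhg8, 1699 bp at Snhg6, 1442 bp at Snhg5, 1015 bp at Snhg12 and 1003 bp at Snhg20. Narrower peaks also lay over starts of such genes, among them 422 bp at Snhg15 and 223 bp at Gas5. The Mir22hg peak over the start had 2052 bp, and that of Mir17hg, host of the miR-17 cluster, 739 bp at 180 bp from its start. Tug1 and Snhg1, Snhg3, Snhg9, Snhg10, Snhg11 and Snhg18 had peaks near a coding start and none that met the rule.

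Of 7 structured RNAs transcribed mostly by RNA polymerase III, 5 had member peaks. The share over all genes of their types is not given here, so this count cannot be set against it. Rn7sk, which holds P-TEFb inactive, had a peak of 1874 bp, the vault RNA gene Vaultrc5 1035 bp, and the Y RNA gene Rny1 832 bp. Terc, the RNA template of telomerase, which is made by RNA polymerase II, had a peak of 654 bp with 65.6% GC and CpG island composition. Rmrp and Rpph1, RNAs of the RNase MRP and RNase P enzymes, lay under peaks near coding starts.

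The annotated 5′ end of a miRNA gene is the end of the hairpin and not the start of its primary transcript, so a peak there need not mark a promoter. Of 39 miRNA genes looked up, 23 had a member peak, but they shared 14 peaks, because clustered hairpins lie within 1000 bp of the same peak. Of all miRNA genes 22.8% had a listed peak of any class within 1000 bp. The miR-290 cluster, the most abundant miRNAs of mouse ES cells, had a peak of 2167 bp (chr7:3217542-3219708) that covered 6 hairpin ends and lay within 1000 bp of 8, the last being Mir294 at 933 bp. Mir295 had a further peak of 915 bp at 906 bp. The miR-302 cluster with Mir367, in an intron of Larp7, had 1 peak of 187 bp (printed above as the Mir302b peak), which 5 genes shared. Mature sequences from RefSeq in GRCm38.p6 are given for these loci, with the seed, bases 2 to 8, in capitals, because the seed in large part sets the targets. In all, 20 of the 23 genes matched, with 38 mature sequences and 23 distinct seeds. Only part of these sequences is printed. For Mir302a and Mir292 only the 5p sequence was among them, so their 3p seeds were not compared.
miR-291a-3p: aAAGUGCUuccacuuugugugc
miR-294-3p: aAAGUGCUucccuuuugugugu
miR-295-3p: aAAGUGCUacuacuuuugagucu
miR-302b-3p: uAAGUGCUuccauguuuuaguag
miR-302d-3p: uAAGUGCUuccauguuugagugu
miR-302c-3p: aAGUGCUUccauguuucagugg
miR-290a-3p: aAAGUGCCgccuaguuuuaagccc
miR-291b-3p: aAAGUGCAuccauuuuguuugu
miR-367-3p: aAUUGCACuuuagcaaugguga
miR-17-5p: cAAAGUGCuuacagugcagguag
miR-9-5p: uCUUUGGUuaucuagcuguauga
let-7g-5p: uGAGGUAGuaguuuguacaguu
let-7i-5p: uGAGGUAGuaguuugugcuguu
The seed AAGUGCU was shared by 5 of these, from both the miR-290 and the miR-302 clusters, so peaks on different chromosomes lay beside miRNAs with 1 seed. The miR-302c-3p, miR-290a-3p, miR-291b-3p and miR-17-5p seeds resembled it and were not identical. Mir17 shared the peak of its host Mir17hg. Mirlet7g and Mirlet7i share the let-7 seed, and had peaks of 738 bp at 595 bp and of 1652 bp over the end with 66.3% GC. The 3 Mir9 genes, neural miRNAs of identical mature sequence, all had member peaks, of which the widest was 1106 bp at Mir9-1. The Mir124a genes, also neural, had peaks of 168, 1319 and 2266 bp.

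Among antisense and overlapping partners of developmental genes, 17 of 18 were annotated. Of these 7 had member peaks, 12 in all with 7 of CpG island composition, 8 had only peaks near a coding start and 2, Hotair and Hottip, had none. Of all antisense genes 46.6%, and of all processed-transcript genes 62.8%, had a listed peak of any class within 1000 bp of a start. CpG island composition was found in 10.9% of all members and in 15.2% of the antisense group. Six3os1 had 3 peaks of 424, 460 and 652 bp. Hoxa11os and Hoxaas3 had 2 each, as did Nkx2-2os, where 1 peak of 834 bp overlapped the start. Otx2os1 had 1 of 391 bp, Dlx6os1 1 of 169 bp and Sox1ot 1 of 1547 bp. Several lay just past the limit from a coding start, such as 1218 bp for Otx2os1.

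Of 22 pluripotency genes, 11 were the nearest coding gene of at least 1 member, with 37 peaks and a median width of 523 bp. The share over all protein-coding genes is not given here, so 11 of 22 cannot be set against it. Numbers of peaks per gene were not adjusted for the length of the region around the gene. Sox2 and Myc had 6 each, Klf5, Prdm14 and Mycn 5 each and Tbx3 4. The Sox2 peaks lay at 3368 to 66175 bp from the coding start, near Sox2ot and predicted transcripts. Of the Myc peaks, 2 overlapped starts of Pvt1, a lincRNA beside Myc, at 50235 and 111221 bp. Among the Mycn peaks was that of Platr19. At Esrrb, an orphan nuclear receptor gene, the peak of 532 bp (chr12:86504112-86504643) overlapped a processed-transcript start in an intron and itself held an ESRRB match. The Klf4 peak, 1382 bp, lay 776 bp from a start of the lincRNA Gm12510 and 66732 bp from Klf4. The Lefty1 peak, 864 bp, lay 1325 bp from the coding start. Pou5f1, Nanog, Klf2, Zfp42, Sall4, Nr0b1, Dppa3, Tdgf1, Lin28a, Fgf4 and Nodal were the nearest coding gene of no member.

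The widest member, at a processed-transcript start of Ppp2r5a, spanned 23148 bp with 33.5% of its bases repeat-masked. The widest lincRNA peak, at Gm26917, spanned 5730 bp with 64.9% GC. These were the 2 members wider than 5000 bp. The methods describe removal of peaks of that width, so both are uncertain as open chromatin of the named genes. The widest pseudogene peak, 3841 bp at Gm13230, had 34.7% GC and 40.9% masked bases. The widest antisense peak had 2006 bp (Gm31763) and the widest retained-intron peak 2388 bp (Zfp316).

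Members were spread over the chromosomes at shares of listed peaks between 6.16% on chromosome 18 and 9.16% on chromosome 12 (396 of 4321, 8.34 to 10.1), and none of the 38 peaks on Y was a member, which allows a share of up to 9.18% (Wilson). On X the share was 7.10%. The chromosome 12 members included 65 peaks nearest to immunoglobulin or T cell receptor segments, with a median width of 327 bp and 43.1% GC. A CTCF match was found in 23.1% (14.5 to 34.6) of these 65. Over all members a CTCF match was found in 13.9% of whole peaks and in 8.08% of their central 200 bp. Without starts of such segments the chromosome 12 share of members was 7.68% (6.93 to 8.52). These segments were chosen after their values were seen. Of the 65, 49 were starts of IG_V_gene segments, and segment pseudogenes were counted in the pseudogene group.

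The limits of 1000 bp were conventions. Of peaks 801 to 1000 bp from a coding TSS there were 731, with a median width of 376 bp and 52.4% GC, and members over 1000 and up to 1200 bp from one numbered 160, with 366.5 bp and 54.2% GC. Leaving out peaks at coding starts, 942 peaks with a median of 335.5 bp lay between 801 and 1000 bp from any TSS, and from there to 1200 bp lay 1327 with 333 bp. Counts on either side of a limit cover unlike sets and cannot be set against each other. Beyond 1000 bp from a coding TSS, only peaks that also had a non-coding start within 1000 bp were counted. The bin of 1327 includes peaks whose nearest start was coding, which the bin of 942 leaves out.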

How the data were processed

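ATAC-seq libraries of ZHBTc4 ES cells were aligned by the authors to GRCm38 (mm10) with STAR 2.6.1c, freed of duplicates with Picard and restricted to chromosomes 1 to 19, X and Y. MACS 2.1.1.20160309, run on read pairs, gave the peaks of each library, which BEDTools merged. The deposited list holds 3 columns of coordinates and no signal, score, count or other value per library. The methods describe removal of peaks over 5000 bp and of input or blacklisted regions, but 7 listed peaks were over 5000 bp, and such regions may remain. Depth, and with it precision per library, is unknown.

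Distances ran from the peak edge to 132629 GENCODE M21 TSS positions, 54363 of them coding. Shares have Wilson intervals, share differences Newcombe intervals, medians binomial order-statistic intervals and median differences Price-Bonett intervals, all at 95%. Groups follow the nearest non-coding start. The members, gene lists and tests were chosen with earlier results of these data known, and the OCT4::SOX2 consensus with match counts known. Genes were named by fixed lists, by width (the 3 widest per group, of which some are given) and by fewest OCT4::SOX2 mismatches, with exceptions stated. Constructs and phases were not compared, for want of values per library. Alternatives changed the limit, the annotation set, the edge or centre, the joining of peaks and the mismatches. Functions were tested on simulated data. Python 3.11.15 was used with scipy 1.17.1, pandas 2.3.3, matplotlib 3.10.9 and numpy 2.4.6.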

Additional observations from a re-analysis of the deposited data

How the results depend on the processing

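Of 31 alternatives, 9 stayed within the range set for them, which was 1.5 times either way for a count and the 95% interval of the value otherwise, and 22 did not. The count is thus the looser measure: 5665 members at a limit of 500 bp and 10898 at 2000 bp were within its range. The number of members was 3101 when the peak had to overlap the start, 4559 with basic transcripts alone and 5048 with peaks of at least 300 bp. Median width was 446 bp after joining neighbouring peaks, 651 bp with overlap and 417 bp with distance from the centre, and median GC was 52% in the central 200 bp and 54.0% with overlap. The share of members at starts of coding genes was 41.8% over any start and 0.132% with basic transcripts, so that part of the members rests on transcripts outside the basic set. The share of lincRNA genes with a peak was 27.0% without the distance from coding starts, 21.5% at the 5′ end of the gene alone and 12.7% with overlap. OCT4::SOX2 matches were in 0.418% in the central 200 bp, 0.0783% with at most 1 mismatch and 5.31% with at most 3, and CTCF matches in 8.08% in the central 200 bp and 4.18% with no mismatch. Of alternatives chosen after seeing the data, distance from the centre gave differences from distal peaks of 61 bp in width, 3.14 points (2.92 to 3.35) in GC and -1.86 points (-2.49 to -1.19) in CTCF matches, and leaving out receptor segments a chromosome 12 share of 7.68%. No paired analysis was possible because values per library were not at hand. Without depth or scores, weak and strong peaks could not be told apart.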
